A study of Mus musculus with 8 samples.

Results

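Hox genes encode homeodomain transcription factors that lie in 4 clusters on different chromosomes. The number in a gene's name gives its position in its cluster. Genes with low numbers act early and towards the head of the embryo, those with high numbers later and towards the tail. In the gut they are best known for setting regional identity along its length, largely through the mesenchyme. All rows of the gene table named Hoxa, Hoxb, Hoxc or Hoxd with a position number were taken, which gave 39 genes of 23361. In mm10 the Hoxa cluster (11 genes) spans chromosome 6 from 52155367 to 52260880 and the Hoxb cluster (10 genes) chromosome 11 from 96194361 to 96368253. The Hoxc cluster (9 genes) spans chromosome 15 from 102921131 to 103036852 and the Hoxd cluster (9 genes) chromosome 2 from 74668310 to 74765142.

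RNA was sequenced from 5 cancers of the gastric squamous-columnar junction (SCJ), the border between the squamous forestomach and the glandular stomach, and from the SCJ of 3 wild-type stomachs of age-paired mice. The cancers, labelled Trp53-/-Rb1-/-, arose in tamoxifen-treated mice with floxed Trp53 and Rb1, a Cre recombinase knocked into the Lgr5 locus and a tdTomato reporter (Ai9). Cre was thus limited to Lgr5+ cells, tumors were dissected by tdTomato fluorescence, and the Cre knock-in, the reporter and tamoxifen cannot be told apart from the deletions in this comparison. Values are FPKM, a level per length of transcript and per library size, which the authors rounded to whole numbers, so that a value of 1 is a single step above 0. Whether they were also scaled between libraries is not given in the sources used here, so values are set beside TPM, with each library rescaled to the same sum, where the scaling matters. A fall in a bulk sample can come from fewer cells of a type or from less RNA per cell, and these cannot be told apart.

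The libraries summed to between 403569 and 573858 FPKM in the cancers and between 887141 and 992550 in the controls, while the median gene tested had 7 or 8 FPKM in every library. FPKM carry no read numbers here, so depth is unknown. An exact 0 can also be a failed estimate. Pgc, a gene of chief cells, was listed at 0 in 2 controls and at 28832 in the third, and 2 genes in all were at 0 in 1 control and at least at 100 in another. Of the deleted genes, Rb1 had 4, 4, 5, 6 and 4 FPKM in cancers 1 to 5 and 9, 9 and 10 in controls 1 to 3, a log2 change of -0.90 (limma adjusted p = 0.0059) that was -0.05 with TPM (adjusted p = 0.84). Trp53 had 12, 22, 12, 30 and 12 in cancers 1 to 5, against 16, 17 and 19 in controls 1 to 3, and values per gene do not separate deleted exons from the rest. Neuroendocrine markers (Chga, Chgb, Syp and Insm1) summed to between 7568 and 16697 FPKM in the cancers, against 120 to 181 in the controls. Gastric gland markers summed to between 29 and 40825 in the cancers, against 73375 to 127679 in the controls.

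Hox transcripts were scarce in both tissues. The highest value of any of the 39 genes in any library was 6 FPKM, reached by Hoxc8 in control 2. In every library 23 genes (59.0%) were listed at 0, against 33.1% of all rows of the table. None of the 16 posterior genes (positions 9 to 13) was above 0 in any library, and neither was any of the 3 genes at position 1. The 16 genes above 0 somewhere lay at positions 2 to 8, with 4 of 8 anterior genes (positions 1 to 3) and 12 of 15 central genes (positions 4 to 8). By cluster they were 4 Hoxa, 7 Hoxb, 4 Hoxc and 1 Hoxd genes. In both tissues the highest position above 0 was 8.

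**Figure D1:**
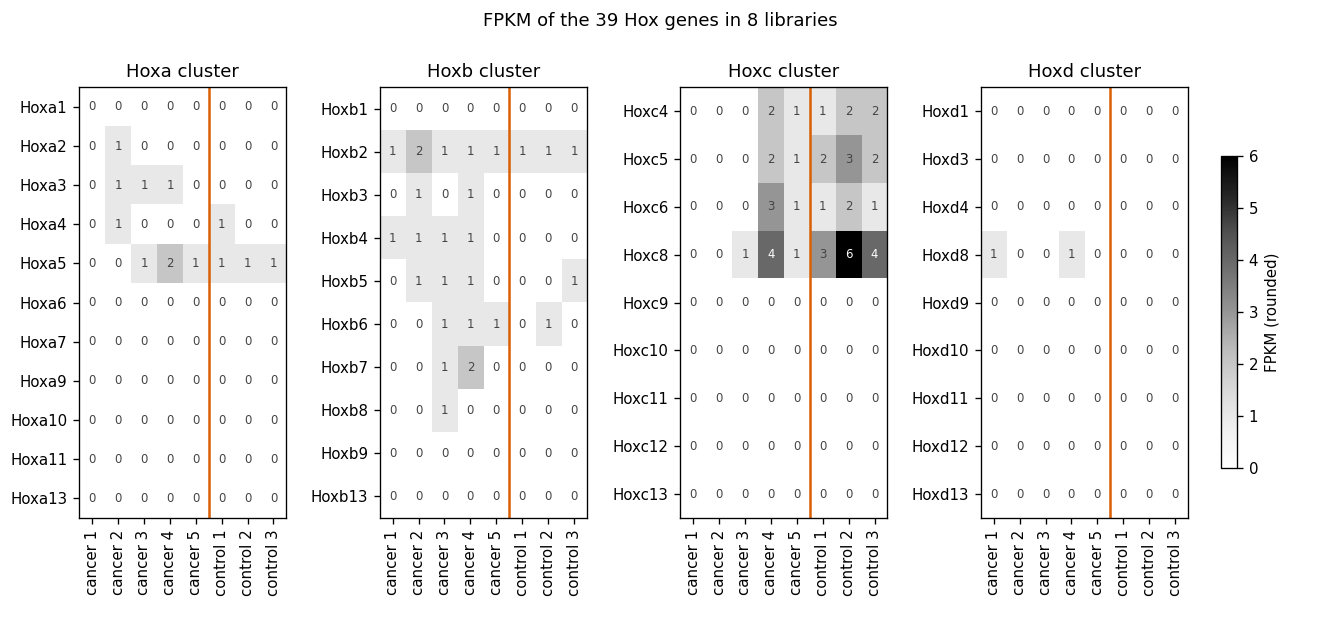
Rounded FPKM of each Hox gene (rows, by cluster and position) in each of the 8 libraries (columns); the orange line separates cancers from controls and darker cells are higher. No value above 0 lies beyond position 8, and all values of 3 to 6 FPKM are those of Hoxc5, Hoxc6 and Hoxc8 in the controls and cancer 4.

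The paralogs at position 4 show how the clusters differed. Hoxb4 was above 0 in cancers only, Hoxc4 was above 0 in all controls and 2 cancers, and Hoxd4 was listed at 0 throughout. Hoxa4, with 1 FPKM in cancer 2 and in control 1, has no entry in the promoter table used here. The 250 bases before their start sites, from RefSeq (GRCm38.p6, plus strand, 5′ to 3′), are given here with CpG dinucleotides in capitals, since CpG-rich promoters are a known feature of Hox clusters.
Hoxb4 (chr11:96318017-96318266): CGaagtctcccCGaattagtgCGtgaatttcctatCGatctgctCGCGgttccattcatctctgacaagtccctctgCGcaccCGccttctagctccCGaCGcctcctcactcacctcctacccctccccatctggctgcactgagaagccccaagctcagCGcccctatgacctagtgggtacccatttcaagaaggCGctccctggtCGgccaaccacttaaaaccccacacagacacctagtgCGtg
Hoxc4 (chr15:103034145-103034394): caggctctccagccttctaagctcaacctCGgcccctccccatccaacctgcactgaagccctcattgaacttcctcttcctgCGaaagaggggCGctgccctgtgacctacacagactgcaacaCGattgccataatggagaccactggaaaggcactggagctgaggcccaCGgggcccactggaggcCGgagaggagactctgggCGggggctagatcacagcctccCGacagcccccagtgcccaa
Hoxd4 (chr2:74721728-74721977): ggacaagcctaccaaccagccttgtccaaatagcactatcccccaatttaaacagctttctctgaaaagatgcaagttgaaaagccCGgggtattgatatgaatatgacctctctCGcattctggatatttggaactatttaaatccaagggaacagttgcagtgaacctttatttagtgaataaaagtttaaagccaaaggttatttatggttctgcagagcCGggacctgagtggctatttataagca

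These stretches held 14 CpG for Hoxb4, 8 for Hoxc4 and 3 for Hoxd4. RefSeq promoters (300 bases, 50 of them after the start) were matched for 22 of the 39 genes, with 24 start sites in all. Their median ratio of observed to expected CpG was 0.63, against 0.38 over all 32851 promoters. E2F-type words on either strand (TTCCCGC, the related word TTGGCGC and the third form TTCGCGC) were found in 0 of the 24 and in 8.07% of all promoters. Caudal-type words on either strand (TTTATGG and the related word TTTATTG) were found in 2 of the 24, those of Hoxb8 and Hoxd4, and in 7.20% of all promoters. Genes listed at 0 throughout ranged from a ratio of 0.26 (a Hoxd11 start) to 0.92 (Hoxa6, Hoxd3 and Hoxa13), and Hoxa5, above 0 in 6 libraries, had 1.02.

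A fit over the whole series covered 14357 genes, those reaching 1 FPKM in 3 or more libraries. Among these were 10 Hox genes, while 6 others failed this filter with some value above 0. Of the 10, 1 (Hoxb4) was called higher in the cancers at an adjusted p under 0.05 (limma), where the background of all genes was 16.2%. None was called lower, where the background was 18.3%, and 2 were lower at an unadjusted p under 0.05 (Hoxc5 and Hoxc8). With TPM the backgrounds became 50% higher and 3.68% lower, and 2 and 0 of the 10 were called. After quantile normalization they were 14.5% and 13.5%, with 0 and 3 of the 10 called. With the replicate number as a block they were 6.84% and 3.84%, with 1 and 3 called, but that fit in effect sets cancers 1 to 3 alone against the controls, since numbers 4 and 5 occur only among the cancers. Among the 3056 genes with a mean FPKM no higher than that of Hoxc8 (2.38), 20.5% were called higher and 7.82% lower. All 10 Hox genes overlapped between the groups, whereas 34.1% of all genes did not overlap (14.4% higher and 19.8% lower). Low whole-number values tie easily, and overlap was not counted among genes at Hox levels, so this contrast is not at like levels. The median log2 fold change of the 10 Hox genes was -0.08, beside -0.04 over all genes tested. TPM moved the median of all genes to 0.81 and that of the 10 to 0.34, and under it each tested Hoxc gene stayed below 0. The 95% intervals of Hoxb4, Hoxc5 and Hoxc8 lay on 1 side of 0, and those of the other 7 genes included 0.

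**Figure D2:**
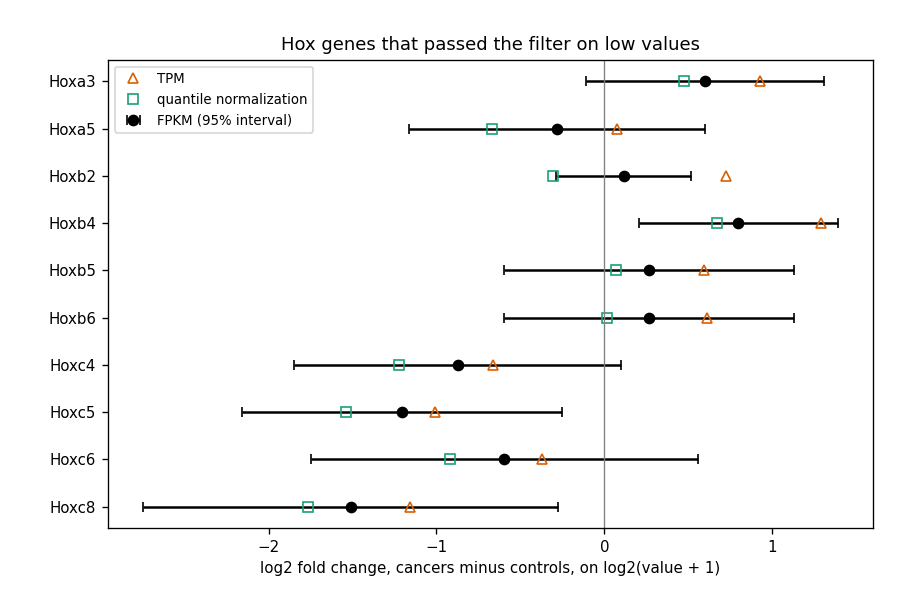
Log2 fold change (cancers minus controls, on log2(value + 1)) of the 10 Hox genes that were tested, with 95% intervals from limma (black) and the values after TPM rescaling (triangles) and quantile normalization (squares). The 4 Hoxc genes lie below 0 under all 3 scalings, Hoxa3, Hoxb4, Hoxb5 and Hoxb6 above 0, and Hoxa5 and Hoxb2 change sign.

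The Hoxc genes were the main Hox transcripts of control SCJ and were low in 3 of the 5 cancers. Signal came from 4 adjacent genes, Hoxc4, Hoxc5, Hoxc6 and Hoxc8, which act in patterning of the neck and thorax. Their summed FPKM was 7, 13 and 9 in controls 1 to 3 and 0, 0, 1, 11 and 4 in cancers 1 to 5. In FPKM cancers 1 to 3 and 5 lay below every control and cancer 4 inside their range. Rescaled to TPM, the sums were 7.32, 14.7 and 9.07 in the controls and 0, 0, 2.28, 19.7 and 8.97 in the cancers, with cancers 1 to 3 still below every control, cancer 5 inside their range and cancer 4 above it. The Hoxc cluster therefore made up 70%, 81.3% and 75% of all Hox FPKM in the controls, and 0%, 0%, 11.1%, 50% and 57.1% in the cancers. Rescaling the rounded values leaves these shares unchanged, but a scaling applied before the rounding could alter them. They also rest on sums of 3 to 22 FPKM. On the log2 scale the mean Hoxc sum of the cancers differed from that of the controls by -1.59, by -0.74 with TPM, by -2.20 after quantile normalization and by -2.95 without cancer 4.

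Hoxc8 (chromosome 15, 102990539 to 102994254) had 3, 6 and 4 FPKM in the controls and 0, 0, 1, 4 and 1 in the cancers. Only cancer 4 reached the control range. Its log2 fold change on log2(FPKM + 1) was -1.51 (95% interval -2.75 to -0.27), with an adjusted p of 0.060 from limma and p = 0.089 in the two-sided exact permutation test. Hoxc5 (103014008 to 103017429) had 2, 3 and 2 in the controls and 0, 0, 0, 2 and 1 in the cancers, a log2 fold change of -1.21 (95% interval -2.16 to -0.25, adjusted p = 0.054 from limma, exact p = 0.071). Here too cancer 4 met the lowest controls. Hoxc4 (103034395 to 103036852) had 1, 2 and 2 in the controls and 0, 0, 0, 2 and 1 in the cancers (log2 fold change -0.87, 95% interval -1.85 to 0.10, adjusted p = 0.14 from limma). Hoxc6 (103009562 to 103011881) had 1, 2 and 1 in the controls and 0, 0, 0, 3 and 1 in the cancers, with its highest value in cancer 4. Its log2 fold change was -0.59 (95% interval -1.75 to 0.56, adjusted p = 0.37 from limma). None of the 4 genes passed the threshold of 0.05, and 2 (Hoxc5 and Hoxc8) had an unadjusted p under 0.05. Without cancer 4, Hoxc4, Hoxc5 and Hoxc8 passed, with adjusted p of 0.031, 0.012 and 0.011 from limma. Over all genes that fit called 2748 lower, against 2622 with all samples. After quantile normalization the same 3 genes passed, with adjusted p of 0.036, 0.014 and 0.031 from limma, where 13.5% of all genes were called lower. With TPM none of the 4 passed, with log2 fold changes of -0.66, -1.01, -0.37 and -1.16 for Hoxc4, Hoxc5, Hoxc6 and Hoxc8 and adjusted p of 0.35, 0.17, 0.65 and 0.18 from limma. Without control 1, 2 or 3 none passed either, with adjusted p between 0.11 and 0.64.

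Among the cancers, markers of stratified squamous epithelium were likewise lowest in cancers 1 and 2 and highest in cancer 4. Krt5, a keratin of its basal layer, had 128, 170 and 203 FPKM in the controls and 0, 1, 85, 574 and 57 in the cancers. Trp63, the transcription factor of squamous progenitors, had 7, 11 and 9 in the controls and 0, 0, 4, 21 and 4 in the cancers. The 5 squamous markers (Krt5, Krt14, Krt4, Krt13 and Trp63) summed to 1533, 2572 and 2352 in the controls and to 0, 16, 303, 1588 and 476 in the cancers. Cancers 1 and 2, with no Hoxc signal, had the lowest sums, and cancer 4, with the highest Hoxc sum among the cancers, had the highest. Krt4 had 337, 725 and 426 FPKM in the controls and 0, 2, 26, 96 and 89 in the cancers, and Krt13 had 961, 1547 and 1571 against 0, 10, 97, 494 and 251. For these keratins of the upper layers cancer 4 lay below every control, unlike for Krt5, Krt14 and Trp63. Krt4 alone of the 5 was called lower by limma (adjusted p = 0.044), a call lost with TPM and after quantile normalization (adjusted p of 0.056 in both). All 5 markers were at 0 in cancer 1. Smooth muscle markers (Myh11, Acta2, Actg2, Cnn1 and Des) did not follow that order, with sums of 23, 1230, 386, 262 and 41 in cancers 1 to 5, against 325, 239 and 401 in controls 1 to 3. Gland markers (6 genes) summed to 29, 40825, 3029, 25353 and 8947 in the cancers, all below the controls. The part of squamous tissue in the Hoxc values was not tested.

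**Figure D3:**
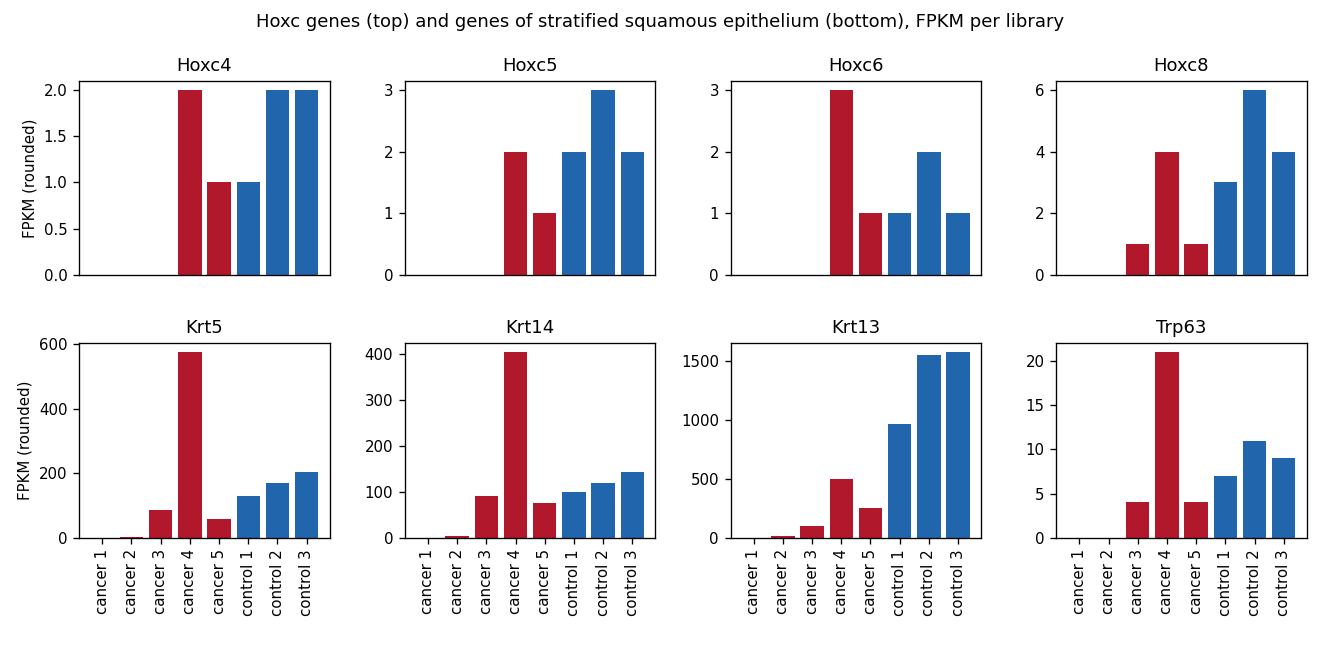
Rounded FPKM per library (bars, red for cancers and blue for controls; each panel has its own axis from 0) of Hoxc4, Hoxc5, Hoxc6 and Hoxc8 above, and of the squamous markers Krt5, Krt14, Krt13 and Trp63 below. Cancers 1 and 2 are at 0 for all 4 Hoxc genes and at or near 0 for the markers, while cancer 4 is within or above the control range for all but Krt13.

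The Hoxb genes showed the opposite leaning at a lower level. Their summed FPKM was 2, 5, 6, 7 and 2 in cancers 1 to 5 and 1, 2 and 2 in controls 1 to 3, so that in FPKM cancers 2 to 4 lay above every control and cancers 1 and 5 met them. In TPM the sums were 4.96, 8.71, 13.7, 12.5 and 4.49 in the cancers, all above the 1.05, 2.25 and 2.02 of the controls. Cancers 1 and 5 had the same 2 FPKM as controls 2 and 3, so only the rescaling set them apart. It multiplied values by 2.48 and 2.24 in these cancers, against 1.13 and 1.01 in these controls. With TPM 50% of all genes were called higher by limma, and separation of the groups in TPM was not counted over all genes. The log2 ratio of the group means was 1.40, with 2.32 for TPM and 0.59 after quantile normalization. The Hoxb share of all Hox FPKM was 66.7%, 62.5%, 66.7%, 31.8% and 28.6% in the cancers, against 10%, 12.5% and 16.7% in the controls. This is no result apart from the Hoxc shares, since a low Hoxc sum by itself raises the Hoxb share. Cancer 1 had a Hoxb sum of 2 in a Hox sum of 3 FPKM, and control 2 the same 2 in 16. Hoxb4 (chromosome 11, 96318267 to 96321638), known for promoting expansion of blood stem cells, had 1, 1, 1, 1 and 0 FPKM in cancers 1 to 5, against 0, 0 and 0 in controls 1 to 3. Its log2 fold change was 0.80 (95% interval 0.21 to 1.39, adjusted p = 0.045 from limma), while the exact permutation test gave p = 0.14, with cancer 5 at 0 like the controls. This call rests on single rounding steps. It was lost without cancer 1, 2, 3 or 4 and without any of the controls, with adjusted p between 0.070 and 0.12 from limma. Because Hoxb4 passed the filter on low values only through the cancers, its place among tested genes itself favours a difference.

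The other Hoxb genes stayed at 2 FPKM or less. Hoxb2, a gene of hindbrain segments, had 1, 2, 1, 1 and 1 in the cancers and 1 in each control, the only Hox gene above 0 in every library. Its log2 fold change was 0.12 (95% interval -0.29 to 0.52, adjusted p = 0.62 from limma). Hoxb5, which acts in enteric neural crest, had 0, 1, 1, 1 and 0 in cancers 1 to 5, against 0, 0 and 1 in controls 1 to 3. Hoxb6 had 0, 0, 1, 1 and 1 in cancers 1 to 5, against 0, 1 and 0 in controls 1 to 3. Both had a log2 fold change of 0.27 with a 95% interval from -0.60 to 1.13 (adjusted p = 0.59 from limma). Hoxb3 was at 1 in cancers 2 and 4, Hoxb7 at 1 and 2 in cancers 3 and 4, and Hoxb8 at 1 in cancer 3. These 3 genes were listed at 0 in all other libraries and were not tested. Smooth muscle markers, whose sums are given above, were highest in cancer 2 and lowest in cancers 1 and 5, the cancers with the lowest Hoxb sums. The controls, with smooth muscle sums of 239 to 401, had Hoxb sums of 1 or 2. The part of muscle tissue in the Hoxb values was not tested. Immune markers (Ptprc, Cd3e and Adgre1) summed to 29 in cancer 1, to 4 to 10 in the other cancers and to 3 or 4 in the controls.

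**Figure D4:**
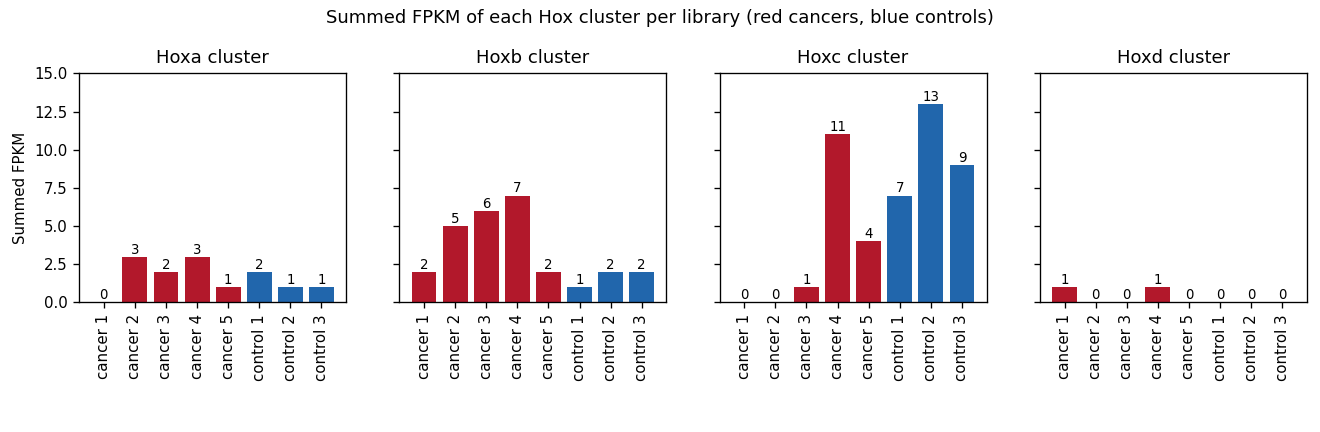
Summed FPKM of all genes of each Hox cluster (bars, 1 per library, red for cancers and blue for controls, common axis from 0, sums printed above the bars). Hoxc sums are 7 to 13 in the controls and 0 to 11 in the cancers, and Hoxb sums are 1 or 2 in the controls and 2 to 7 in the cancers.

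None of the Hoxa genes tested was called, and no Hoxd gene could be tested. Hoxa5, which is required in the mesenchyme for regional patterning of lung and stomach, had 1 FPKM in each control and 0, 0, 1, 2 and 1 in the cancers. It was at 0 in cancers 1 and 2, which were also at 0 for the Hoxc genes. Its log2 fold change was -0.28 (95% interval -1.16 to 0.60, adjusted p = 0.58 from limma), which reversed to 0.078 with TPM. Hoxa3, a gene of pharyngeal organ development, had 0, 1, 1, 1 and 0 in the cancers and 0 in each control (log2 fold change 0.60, 95% interval -0.11 to 1.31, adjusted p = 0.16 from limma). Like Hoxb4, it passed the filter only through the cancers. Hoxa2 was at 1 in cancer 2 and Hoxa4 at 1 in cancer 2 and control 1. Hoxd8 was at 1 in cancers 1 and 4 and was the sole Hoxd gene above 0. The table gives Hoxa3 to Hoxa6 a single shared locus (chromosome 6, 52169062 to 52213597), likewise Hoxd3 and Hoxd4, so fragments of these overlapping genes may have been split between them. Hoxa sums were 0, 3, 2, 3 and 1 in cancers 1 to 5, against 2, 1 and 1 in controls 1 to 3.

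By position, anterior genes summed to 1, 5, 2, 3 and 1 FPKM in the cancers and to 1 in each control. Central genes summed to 2, 3, 7, 19 and 6 in cancers 1 to 5, against 9, 15 and 11 in controls 1 to 3, so that in FPKM cancer 4 was the highest library and the other 4 cancers lay below every control. The log2 ratio of the group means, -0.66, turned to 0.24 with TPM, where cancers 3 and 5 (16.0 and 13.5) lay inside the control range of 9.42 to 16.9. The number of Hox genes at 1 FPKM or more was 3, 7, 9, 13 and 7 in cancers 1 to 5 and 7 in each control. At 2 FPKM or more the controls had 2 to 4 Hox genes, against 0 or 1 in cancers 1, 2, 3 and 5 and 6 in cancer 4.

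Other transcripts of the clusters were as scarce. The table lists 12 further rows inside the cluster bounds, among them Hotair in the Hoxc cluster and 6 microRNA genes, and 11 were at 0 in every library. Mira, beside Hoxa7, had 0, 0, 1, 1 and 0 in cancers 1 to 5, against 1, 1 and 0 in controls 1 to 3. Libraries were selected for polyA+ RNA, so mature microRNAs were not measured. Among ParaHox and Evx genes, relatives of the Hox genes, 6 of 8 were at 0 throughout and the single gene tested, Pdx1, was not called. Pdx1, a factor of the duodenum, antrum and pancreas, had 8 and 14 FPKM in cancers 1 and 2, 0 in the others and 1, 1 and 0 in the controls (log2 change 0.75, limma adjusted p = 0.60). Cdx2, the intestinal member, had 2 and 1 in cancers 1 and 2, with 0 in the other libraries. Both were thus above 0 in the cancers at 0 for the Hoxc genes and at 0 in cancers 3 to 5.

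Genes of the TALE homeodomain class, among them cofactors that bind DNA together with Hox proteins, had a higher summed level than the Hox genes. Pknox2, Pbx4 and Tgif2 stayed within the Hox range at 3 FPKM or less. FPKM is per length, so levels can be set side by side. The 10 genes of this class taken here summed to between 64 and 87 FPKM in the cancers and 49 to 51 in the controls. All Hox genes summed to 3 to 22 in the cancers and 10 to 16 in the controls. Tgif1 alone had 13, 27, 13, 21 and 34 FPKM in cancers 1 to 5, against 17, 16 and 16 in controls 1 to 3. Of these 10 genes, 2 rose (limma, background 16.2%) and 0 fell (background 18.3%). The median log2 fold change was 0.41, beside -0.04 over all genes tested. With TPM 9 were called higher, where the background was 50%. Meis3 had 12, 10, 12, 6 and 11 in cancers 1 to 5, against 2, 3 and 3 in controls 1 to 3, with every cancer above every control. Its log2 fold change was 1.59 with standard error (SE) 0.24 (limma adjusted p = 0.0035). Pknox2 had 3, 1, 1, 2 and 3 in the cancers and was listed at 0 in the controls (log2 change 1.52 with SE 0.28, limma adjusted p = 0.0073). Pknox2 passed the filter on low values only through the cancers, so that its selection favours a rise. With TPM, where the median of all genes was 0.81, Meis3 had a log2 change of 2.52.

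Among 29 chromatin regulators of Hox genes, 5 rose, 0 fell and the median log2 fold change was 0.05. Over all genes 16.2% were called higher and 18.3% lower, with a median of -0.04. The largest rises were those of Psip1, which tethers the MLL methyltransferase complex to chromatin, and Cbx6, a Polycomb reader of methylated histone H3. Psip1 had 50, 16, 43, 18 and 32 FPKM in cancers 1 to 5, against 5, 6 and 3 in controls 1 to 3 (log2 change 2.44 with SE 0.41, limma adjusted p = 0.0053). Cbx6 had 38, 24, 35, 18 and 24 in cancers 1 to 5, against 3, 5 and 6 in controls 1 to 3 (log2 change 2.33 with SE 0.29, limma adjusted p = 0.0019). Cbx7, a second Polycomb reader, rose by 1.51 (standard error 0.29, adjusted p = 0.0081 from limma). Kmt2a, the MLL methyltransferase that maintains Hox transcription, had 10, 4, 11, 5 and 11 in cancers 1 to 5, against 2, 3 and 3 in controls 1 to 3, a log2 fold change of 1.25 with SE 0.35 (limma adjusted p = 0.029). Its call was lost without cancer 1, 3 or 5 or any control (adjusted p of 0.055 to 0.11). Pcgf2, a Polycomb subunit, had a log2 fold change of 0.72 (adjusted p = 0.013 from limma), lost without control 2 (adjusted p = 0.058). Without control 2 the list had 3 genes called, and with TPM 23 were called higher, where the background was 50%. The Polycomb core genes Ezh2, Eed and Suz12 did not pass, with log2 fold changes of 0.26, -0.05 and 0.06.

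**Figure D5:**
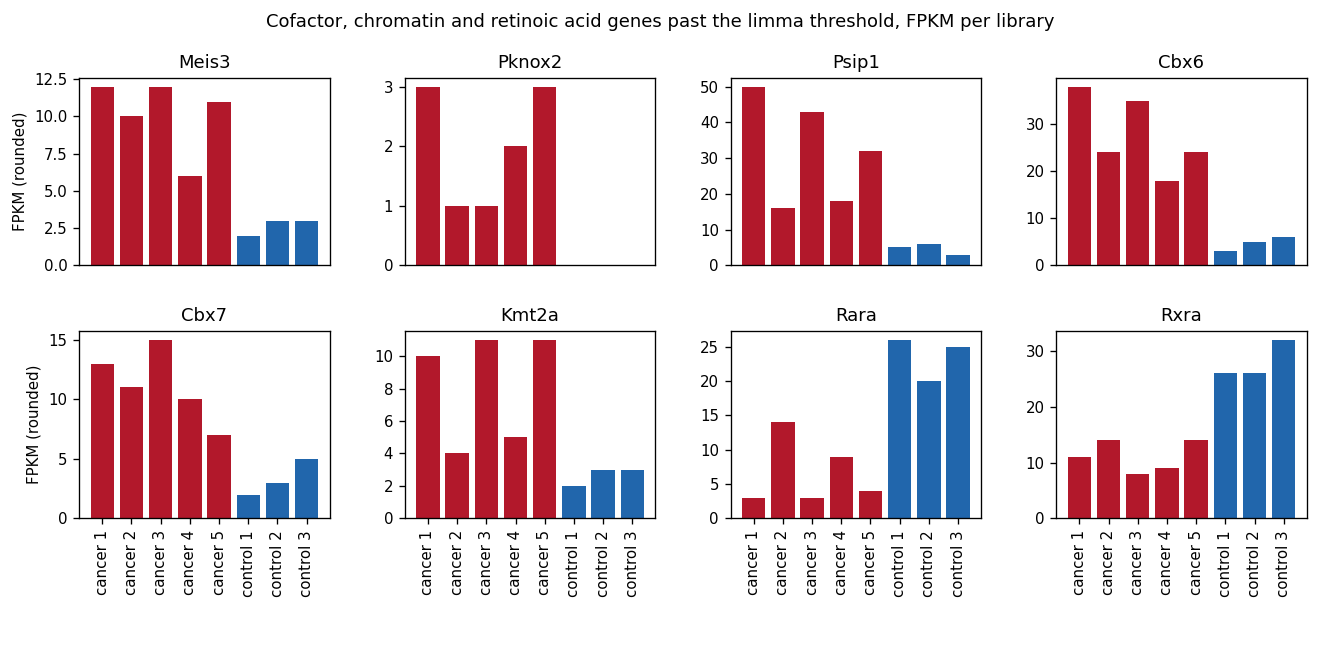
Rounded FPKM per library (bars, red for cancers and blue for controls; each panel has its own axis from 0) of 8 genes past the limma threshold from the lists of cofactors, chromatin regulators and retinoic acid genes. Meis3, Pknox2, Psip1, Cbx6, Cbx7 and Kmt2a lie above the control range in each of the 5 cancers, and Rara and Rxra below it.

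Retinoic acid is a classical inducer of Hox genes. Of 18 genes of its pathway 13 were tested, of which 3 fell, 1 rose and the median log2 fold change was -0.79. Over all genes 18.3% were called lower and 16.2% higher, with a median of -0.04. With TPM 6 were called higher and 2 lower, where the backgrounds were 50% and 3.68%. The receptor Rara had 3, 14, 3, 9 and 4 FPKM in cancers 1 to 5, against 26, 20 and 25 in controls 1 to 3 (log2 change -1.91 with SE 0.47, limma adjusted p = 0.019). This call was lost without control 1, 2 or 3 (adjusted p of 0.071, 0.052 and 0.066). With TPM the Rara log2 change was -1.07 (limma adjusted p = 0.046). Rxra, the partner of Rara, had 11, 14, 8, 9 and 14 in cancers 1 to 5, against 26, 26 and 32 in controls 1 to 3. Its log2 change was -1.27 with SE 0.21 (limma adjusted p = 0.0046), but -0.36 with TPM (adjusted p = 0.22). Aldh1a1, an enzyme of retinoic acid synthesis, had 2, 77, 16, 124 and 40 in cancers 1 to 5, against 528, 431 and 228 in controls 1 to 3 (log2 change -3.69, limma adjusted p = 0.041). The related Aldh1a2 had 4, 9, 2, 4 and 5 in cancers 1 to 5, against 1, 1 and 2 in controls 1 to 3 (log2 change 1.23, limma adjusted p = 0.036). The Aldh1a1 call was lost without cancer 3 or 5 or any control (adjusted p of 0.066 to 0.13), and that of Aldh1a2 without cancer 1, 4 or 5 or any control (0.054 to 0.12). Both calls were also lost after quantile normalization (adjusted p of 0.055 and 0.12), which left no rise in the list, and that of Aldh1a1 with a pseudocount of 0.1 (0.052). Without control 1, 2 or 3 a single gene of the list fell, Rxra, and none rose. Crabp2, a retinoic acid carrier, had 0, 0, 6, 35 and 8 in cancers 1 to 5, against 30, 39 and 41 in controls 1 to 3, with an adjusted p of 0.081 from limma. The squamous marker sums given above were likewise lowest in cancers 1 and 2 and highest among the cancers in cancer 4. Gland marker sums, also given above, were below every control in all 5 cancers, as were Rara and Aldh1a1, and all 3 were highest among the cancers in cancers 2 and 4. The part of squamous and gland tissue in these values was not tested.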

How the data were processed

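RNA was measured in 5 SCJ cancers and 3 control SCJ. Reads were trimmed by the authors (cutadapt 1.8), and FPKM of UCSC genes (mm10) came from cuffquant and cuffnorm 2.2.1. TopHat2 2.0.13 is named in the submitters' processing notes. Whether strand was used in counting, and which normalization option cuffnorm was run with, is not given in the sources used here. The values deposited by the authors are FPKM rounded to whole numbers and were treated as a score, not as read counts. Locus starts were written counting from 1, and all 39 Hox loci overlapped the RefSeq gene in GRCm38.p6.

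The 14357 genes reaching 1 FPKM in 3 or more libraries were fitted on log2(FPKM + 1) with limma 3.58.1 in R 4.3.3 (lmFit, eBayes with trend, Benjamini-Hochberg over all genes, threshold 0.05), while each tested Hox gene also had an exact permutation p (two-sided, 56 splits, smallest possible 0.018). All p-values measure the spread between these samples. Hox genes, cofactors, chromatin regulators, retinoic acid genes and markers were chosen with earlier results of these data known. Kmt2a, Kmt2b and Adgre1 are listed as Mll1, Wbp7 and Emr1. By rule, all Hox genes were counted, values by sample were given for Hox genes past the threshold or reaching 5 FPKM (Hoxb4 and Hoxc8), and at most 4 called genes per list were named by size of change. Values by sample of the other Hox genes, the Hoxc4 and Hoxd4 promoters, Mira, Tgif1, Pcgf2, Pdx1, Cdx2, Crabp2, Pgc, Ezh2, Eed, Suz12 and single markers were added after their values were seen. Alternatives were a pseudocount of 0.1, other filters, TPM, quantile normalization, eBayes without trend, a replicate block and leaving out each sample. Endothelial, fibroblast, hepatocyte, adrenal, enteric nerve and intestinal marker sums are given with the other observations. Protein sequences were not used here, and 4 list and marker genes are not reported here and were left out of the lists.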

Additional observations from a re-analysis of the deposited data

Results flagged for a closer look

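Among the 5 cancers, 10 of 51 results had 1 sample far from the others (a gap to the nearest of more than 0.71 of the range). Chance gives about 2.55 for normally distributed values. The marker sums were taken as raw FPKM and not checked for that distribution, so 2.55 is no measure for them. It does not apply either to Hox values rounded to 0, 1 or 2, where a single differing cancer gives a gap of 1 by construction. Hoxc8 had 4 FPKM in cancer 4 and 0 or 1 in the others, a gap of 0.75 of the range. Hoxa2, Hoxa4, Hoxb2, Hoxb4 and Hoxb8 had a gap of 1, each because 1 cancer differed from 4 equal ones by 1 FPKM, a single rounding step. This was cancer 2 for Hoxa2, Hoxa4 and Hoxb2, cancer 3 for Hoxb8 and cancer 5 for Hoxb4. The neuroendocrine marker sum was lowest in cancer 2, at 7568 (gap of 0.739). The immune sum was highest in cancer 1, at 29 (gap of 0.760), the hepatocyte sum in cancer 5, at 445 (gap of 0.872), and the intestinal sum in cancer 2, at 81 (gap of 0.875).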

How the results depend on the processing

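Hox genes called higher numbered 1 (Hoxb4), 0 over all genes above 0 in at least 1 sample and after quantile normalization, 2 with TPM (Hoxb2 added) and 0 to 1 over fits lacking 1 sample. Hox genes called lower numbered 0, and 3 after quantile normalization, 3 with the replicate block (Hoxc4, Hoxc5 and Hoxc6, from cancers 1 to 3 alone, without the 2 cancers highest in Hoxc) and 0 to 3 over fits lacking 1 sample, the 3 without cancer 4. With a mean FPKM of at least 5 no Hox gene was left to test. Over all genes 4948 were called (2326 higher, 2622 lower), 7704 with TPM (7176 higher, 528 lower), 1534 with the replicate block, and 2490 to 5252 over fits lacking 1 sample, lowest without control 1, 2 and 3 (2490, 2643 and 2815). For cancers and controls of equal number, deviations from the group means had correlations of -0.02, -0.19 and -0.10, so the numbers do not pair the samples, and calls lost or gained under the block are no sign of a weaker or stronger effect.

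The log2 ratio of mean summed FPKM was 0.43 for Hoxa (1.30 with TPM, -0.33 after quantile normalization), 1.40 for Hoxb (2.32 and 0.59), 1.26 for anterior genes (2.14 and 0.54) and -0.66 for central genes (0.24 with TPM). For Hoxc it was -1.59 (-0.74 with TPM, -2.20 after quantile normalization), and -2.95 to -1.27 leaving out 1 sample at a time. The Hoxa5 log2 fold change was 0.078 with TPM and that of Hoxb2 -0.31 after quantile normalization. Rb1 had -0.054 with TPM. Trp53 had 0.86 with TPM (adjusted p = 0.020 from limma), where the median of all genes was 0.81. It had 0.12 after quantile normalization and -0.29 to 0.027 leaving out 1 sample at a time. Of all values for single Hox genes under the alternatives, 116 kept their call without turning direction (2 of them at a change of exactly 0), 9 lost their call in the same direction, 10 gained one and 2 reversed. For the other genes followed (Meis3, Pknox2, Psip1, Cbx6, Cbx7, Pcgf2, Kmt2a, Rara, Rxra, Aldh1a1, Aldh1a2, Rb1 and Trp53) 154 kept direction and call, 34 lost the call in the same direction, whatever the size of the change, and 5 reversed. Why these values moved was not tested. Rounding to whole FPKM limits every Hox value, as most are 0 or 1.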

Other observations

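The remaining marker lists place the Hox values beside other tissues in the samples. Endothelial markers (Pecam1, Cdh5, Kdr and Emcn) summed to 49, 26, 33, 26 and 13 FPKM in cancers 1 to 5, against 5, 11 and 8 in control SCJ. Of the 4, 3 were called higher by limma, where the background of all genes was 16.2%. With TPM 4 were called higher (background 50%), and after quantile normalization 2 (background 14.5%). Fibroblast markers (Pdgfra, Col1a1, Col1a2, Dcn and Lum) summed to 144, 241, 237, 166 and 49 across the cancers, against 99, 104 and 57 in control SCJ, with none at 0. Of the 5, 0 were called by limma, where 34.5% of all genes were called in either direction. With TPM 4 were called higher, and after quantile normalization 1, beside the same backgrounds. Cancer 5 had the lowest sums of both lists among the cancers. Hepatocyte markers (Fga, Fgg, Apoh and Alb) summed to 445 in cancer 5, where the Hoxb sum was 2 and the Hoxc sum 4, and to 1 to 58 in the other cancers. Adrenal medulla markers reached 9, 8 and 1 in cancers 1 to 3 and 0 elsewhere, with Dbh and Pnmt at 0 throughout. Enteric nerve and glia markers summed to at most 3 in any library, and Sox10 was at 0 throughout. Intestinal markers (Cdx2, Cdh17, Vil1 and Fabp2) summed to 17 to 81 in the cancers and 36 to 78 in the controls, with Cdh17 at 0 throughout.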
